A study of Gallus gallus with 4 samples.

Results

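PTF1A, TFAP2A, TFAP2B, TFAP2C and PROX1 are transcription factor genes that were listed here as horizontal cell genes. Horizontal cells are the interneurons that connect photoreceptors across the outer retina. The 5 genes were taken by symbol from the gene column of the authors' transcript sheet. They make 5 of the 18292 named genes, and all 5 were present. RNA was measured in retinal explants of chick embryos of embryonic day 5, which were electroporated with a ThrbCRM1-GFP and a UbiqC-Tdt plasmid and cultured for about 20 hours. ThrbCRM1 is an enhancer element of THRB, a thyroid hormone receptor gene, known from progenitors that give rise to cone photoreceptors and horizontal cells. Cells positive for both reporters form the ThrbCRM1 group, with libraries A and B, and cells positive for Tdt alone form the UbiqC group, also with libraries A and B. Both groups share the electroporation, the culture and both plasmids. Reporter fluorescence was the only basis of the sort, which does not separate progenitors from the neurons they had begun to form, and UbiqC was drawn from all electroporated cells without GFP.

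PTF1A is a bHLH protein that acts in a complex with an E-protein and RBPJ, and in the mouse it is needed for horizontal and amacrine cells. The AP-2 proteins encoded by the TFAP2 genes bind DNA as dimers, and in the mouse retina TFAP2A and TFAP2B act after PTF1A in the formation of these same cells. PROX1 is a homeobox protein that promotes horizontal cell formation in the mouse and is also a gene of the lens and of lymphatic endothelium. In the chick, LHX1 and ISL1 mark separate types of horizontal cell, LHX1 the axon-bearing ones and ISL1 the axonless ones.

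Estimated counts per library ranged from 15673010 for UbiqC A to 31659766 for UbiqC B, with 30959178 and 16087500 for the ThrbCRM1 libraries. EGFP followed the sort, at 9805 and 15147 TPM in ThrbCRM1 cells against 150.3 and 156 TPM in UbiqC cells. TdTomato, the reporter that both populations carry, stood at 3547 and 14505 TPM in ThrbCRM1 cells and at 2124 and 5637 TPM in UbiqC cells, so it was lower in library A of each group. TPM, an abundance per transcript scaled to a fixed library total, is corrected for transcript length and is used here to compare levels between genes, and CPM, the count scaled to a fixed library total, is used to compare libraries. The photoreceptor markers summed to 4255 and 4984 TPM in ThrbCRM1 cells against 123 and 130.2 TPM in UbiqC cells. Of these 12 markers 10 rose, GNAT2 fell by 0.59 on the log2 scale and ARR3 did not pass. THRB, the gene of the enhancer used for the sort, is on this list. Over all tested genes 19.9% rose and 20.9% fell. The 13 retinal progenitor markers summed to 4254 and 3758 TPM against 19146 and 18715 TPM. FABP7 alone held 2129.76 and 1891.98 TPM of these ThrbCRM1 sums and 15655.5 and 15454.5 TPM of the UbiqC sums, so it made most of the difference. Of the 13 progenitor markers 11 fell, SIX6 rose by 0.65 on the log2 scale and PAX6 did not pass. The part of this difference in cell makeup in the results below was not tested. Where a pair of values is given for a population, library A comes before library B. Whether A and B were separate cultures is not stated in the labels, and p-values cover only how far these libraries lie apart, possibly for technical reasons.

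PTF1A, TFAP2A, TFAP2B and TFAP2C were all higher in ThrbCRM1 than in UbiqC, and PROX1 was lower. All 5 genes passed the edgeR quasi-likelihood test at a Benjamini-Hochberg adjusted p of 0.05, 4 of them higher and 1 lower. Of all 16771 tested genes, 40.8% passed, 19.9% higher and 20.9% lower, so a call alone does not set these genes apart. All 5 also had groups whose libraries did not overlap, as did 72% of the tested genes (35.3% higher, 36.7% lower). None of the 5 was near the filter on low counts, since the lowest value of any of them was 26 estimated counts, for TFAP2C in UbiqC A. In bulk RNA, fewer cells of a type and less RNA per cell cannot be told apart, here and in all results that follow.

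**Figure D1:**
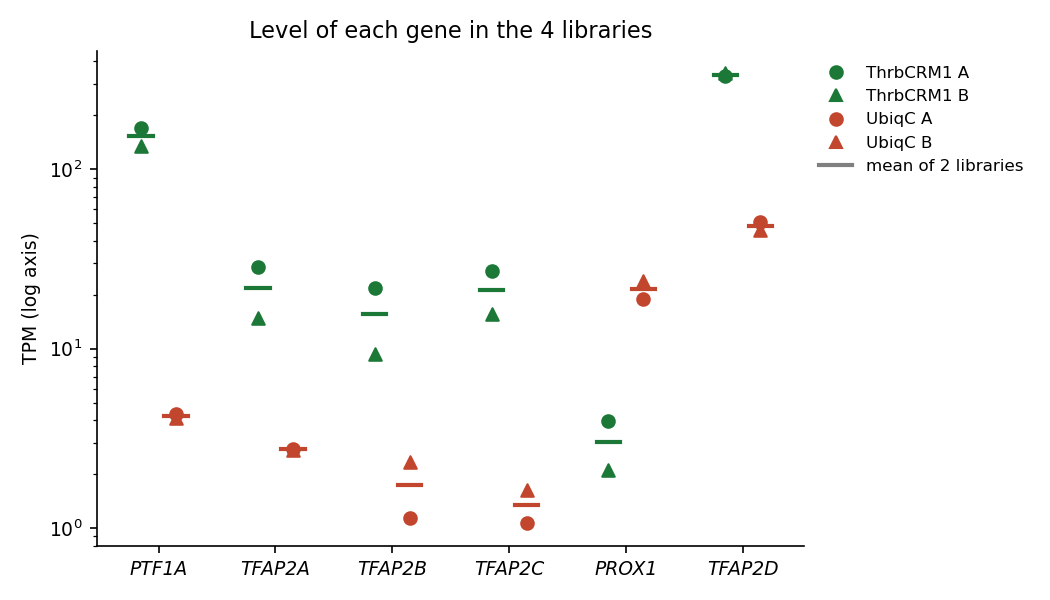
TPM of each gene on a log axis in ThrbCRM1 (green) and UbiqC (red), with circles for library A, triangles for library B and bars for the mean of 2 libraries. PTF1A and the TFAP2 genes sit higher in both ThrbCRM1 libraries and PROX1 sits lower, and TFAP2D, shown for comparison, lies above all 5 genes in both populations.

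PTF1A reached 170.4 and 136 TPM in ThrbCRM1 cells against 4.34 and 4.13 TPM in UbiqC cells. Both ThrbCRM1 libraries lay far above both UbiqC libraries. The means were 153 ± 24.5 TPM (SD, n = 2) and 4.24 ± 0.153 TPM. The log2 fold change was 5.13 ± 0.16 (SE; edgeR adjusted p = 1.43e-05), which placed PTF1A 65th by size among the 3333 genes that rose. Its UbiqC level rested on 39 and 72 estimated counts.

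The 3 AP-2 genes rose from lower levels than PTF1A reached. TFAP2A stood at 28.6 and 14.9 TPM in ThrbCRM1 cells against 2.77 and 2.72 TPM in UbiqC cells. Its means were 21.7 ± 9.71 TPM and 2.75 ± 0.0403 TPM (SD, n = 2), and its log2 fold change was 2.86 ± 0.32 (SE; edgeR adjusted p = 0.000981). The UbiqC libraries were nearly equal, and the spread of this gene lay almost wholly between the ThrbCRM1 libraries.

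TFAP2B stood at 21.9 and 9.41 TPM in ThrbCRM1 cells against 1.14 and 2.34 TPM in UbiqC cells. Its means were 15.7 ± 8.84 TPM and 1.74 ± 0.848 TPM (SD, n = 2), and its log2 fold change was 2.75 ± 0.42 (SE; edgeR adjusted p = 0.00317). It was the least even of the 5 genes in both groups. Without ThrbCRM1 A the log2 fold change was 2.10, a linear fold smaller by more than 1.5 times, with an edgeR adjusted p of 0.0233.

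TFAP2C stood at 27.0 and 15.7 TPM in ThrbCRM1 cells against 1.07 and 1.62 TPM in UbiqC cells. Its means were 21.4 ± 8.03 TPM and 1.34 ± 0.394 TPM (SD, n = 2), and its log2 fold change of 3.88 ± 0.32 (SE; edgeR adjusted p = 0.000281) was the highest point estimate of the 3 AP-2 genes. The differences in fold change between the AP-2 genes were not tested.

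The chick table holds 2 further AP-2 genes. TFAP2D, which encodes AP-2 delta and is known from ganglion cells in the mouse retina, stood at 331 and 343 TPM in ThrbCRM1 cells against 50.7 and 46.0 TPM in UbiqC cells. It rose by 2.73 ± 0.09 on the log2 scale (SE; edgeR adjusted p = 1.48e-05), a fold much like those of TFAP2A and TFAP2B but with libraries that agreed far more closely. TFAP2D made up 80.9% and 89.5% of the summed AP-2 TPM in ThrbCRM1 A and B and 90.5% and 87.0% in UbiqC A and B, so most AP-2 RNA in every library came from it. TFAP2E stood between 0.221 and 0.559 TPM in the 4 libraries and did not pass (edgeR adjusted p = 0.538). In the RefSeq table of the assembly bGalGal1.mat.broiler.GRCg7b, used here for names and neighbours only, TFAP2B and TFAP2D are neighbouring protein-coding genes. Reads from stretches that AP-2 genes share could be split between them. The levels of TFAP2A, TFAP2B and TFAP2C in both populations, and their fold changes, are uncertain to that extent. TFAP2D was higher in ThrbCRM1 as well, and the part of such reads in the rise of the other AP-2 genes was not tested.

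PROX1 went the other way. It stood at 3.94 and 2.11 TPM in ThrbCRM1 cells against 18.9 and 24.0 TPM in UbiqC cells. All UbiqC values lay above all ThrbCRM1 values. The means were 3.03 ± 1.29 TPM and 21.5 ± 3.55 TPM (SD, n = 2), so UbiqC was 7.09 times higher. The log2 fold change was -2.84 ± 0.25 (SE; edgeR adjusted p = 0.000331), which placed PROX1 196th by size among the 3506 genes that fell. PROX2, its paralog, rose by 1.91 ± 0.53 (SE; edgeR adjusted p = 0.0312) at levels of 0.594 TPM or less, with only 4 estimated counts in UbiqC A. That call was lost with the DESeq2 test (adjusted p = 0.0929) and without ThrbCRM1 A, where the log2 fold change was 1.29, without UbiqC A (1.63) and in the unfiltered limma fit of TPM values (0.36).

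The order of the genes by TPM therefore differed between the populations. In ThrbCRM1 PTF1A came first, TFAP2A, TFAP2C and TFAP2B followed with overlapping ranges, and PROX1 came last, below the range of TFAP2B. In UbiqC PROX1 came first, followed by PTF1A and TFAP2A, each below the range of the gene before it, and then TFAP2B and TFAP2C, whose ranges overlapped. PTF1A was 43.3 and 64.2 times as abundant as PROX1 in ThrbCRM1 A and B. In UbiqC A and B PROX1 was 4.36 and 5.81 times as abundant as PTF1A.

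All 5 genes were higher in ThrbCRM1 A than in ThrbCRM1 B, whichever way they differed from UbiqC. The ratio of A to B on the CPM scale was 1.22 for PTF1A, 1.86 for TFAP2A, 2.15 for TFAP2B, 1.68 for TFAP2C and 1.80 for PROX1, and 0.970 for TFAP2D. The middle part of all tested genes, between the quartiles, lay between -0.13 and 0.16 on the log2 scale of this ratio. A difference as great as that of TFAP2B was found in 0.111% of the 4520 tested genes within 2-fold of its CPM, and one as great as that of TFAP2A in 0.529% of 4348 such genes. The share was 0.728% of 4531 genes for TFAP2C, 1.65% of 3452 for PROX1 and 5.48% of 4179 for PTF1A. In UbiqC only PTF1A and TFAP2A were higher in A, by 1.08 and 1.14 times.

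Other marker lists differed between the ThrbCRM1 libraries as well. Of the 18 other tested horizontal cell genes, 16 were higher in ThrbCRM1 A, with a median log2 ratio of 0.21, against 50.9% of all tested genes. ISL1, at 4.35 and 1.79 TPM in ThrbCRM1 cells, was among them. Of 13 retinal progenitor markers 12 were higher in A, with a median of 0.21. Of 12 photoreceptor markers 1 was higher in A, with a median of -0.24, and THRB itself stood at 309 TPM in A and 419 TPM in B, and EGFP and TdTomato too were lower in A. The part of these differences in the spread of TFAP2A, TFAP2B and TFAP2C was not tested.

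**Figure D2:**
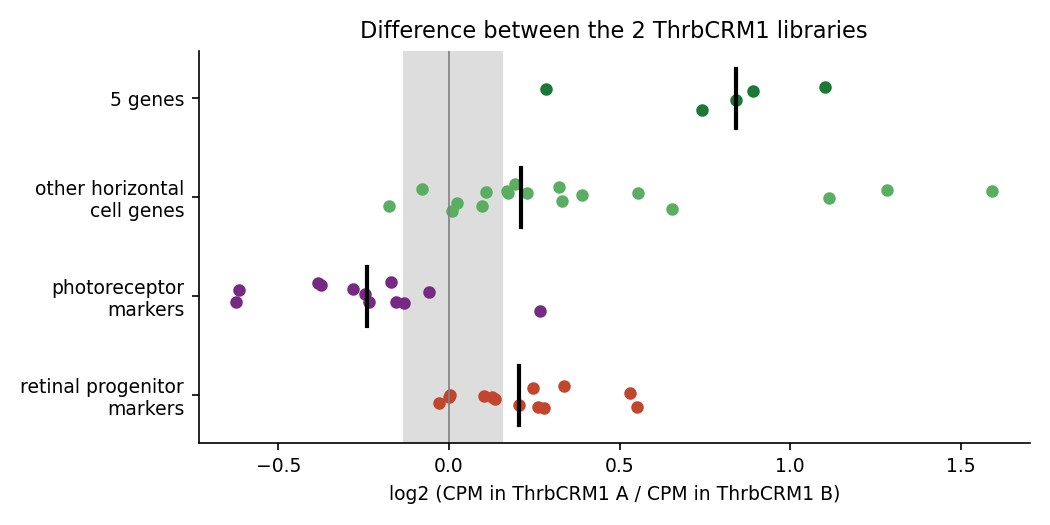
Log2 ratio of CPM in ThrbCRM1 A to CPM in ThrbCRM1 B for each tested gene (points), with the median of each list as a black bar and the range between the quartiles of all 16771 tested genes in grey. The 5 genes lie between 0.29 and 1.11, the photoreceptor markers have a median of -0.24, and 12 of 13 progenitor markers lie above 0.

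The gene levels are sums over transcripts, of which the 5 genes have 14. PTF1A and TFAP2C have 1 transcript each, TFAP2A 6, TFAP2B 2 and PROX1 4, and each reached at least 1 TPM in some library. All 14 were tested, and all 14 had a fold change in the direction of their gene. The transcripts of PTF1A and TFAP2C passed when each transcript was tested on its own (edgeR adjusted p = 0.0159 and 0.0400), and none of the other 12 did. Of all 32759 tested transcripts, 6.01% passed, 3.08% higher and 2.93% lower. With the DESeq2 test 10 of the 14 passed, where 26.1% of transcripts did. The 2 calls were lost with any 1 library left out.

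The main transcript of TFAP2A, of 2529 bases, carried 37.0% and 42.5% of the gene's TPM in ThrbCRM1 A and B and 63.3% and 46.0% in UbiqC A and B. A transcript of 1986 bases reached 5.23 and 1.84 TPM in ThrbCRM1 cells and was listed at 0 in both UbiqC libraries. For TFAP2B, the transcript of 1404 bases carried 68.4% and 65.8% of the TPM in ThrbCRM1 and 49.0% and 58.6% in UbiqC, and the one of 8852 bases carried the rest. With so unlike lengths, the same TPM gives very unlike counts, and with offsets for effective length the log2 fold change of TFAP2B was 3.07.

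Of the 4 PROX1 transcripts, 3 differ by at most 7 bases in length, at 8236, 8240 and 8243 bases. The transcript of 8236 bases was the main one in UbiqC A and B, with 61.5% and 59.7% of the TPM. In ThrbCRM1 it carried 88.0% in A and 39.2% in B, while the one of 8243 bases carried 0% in A and 43.5% in B. The ThrbCRM1 libraries thus differed in which long transcripts their reads were assigned to, and transcripts of such like length may share most of their sequence.

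**Figure D3:**
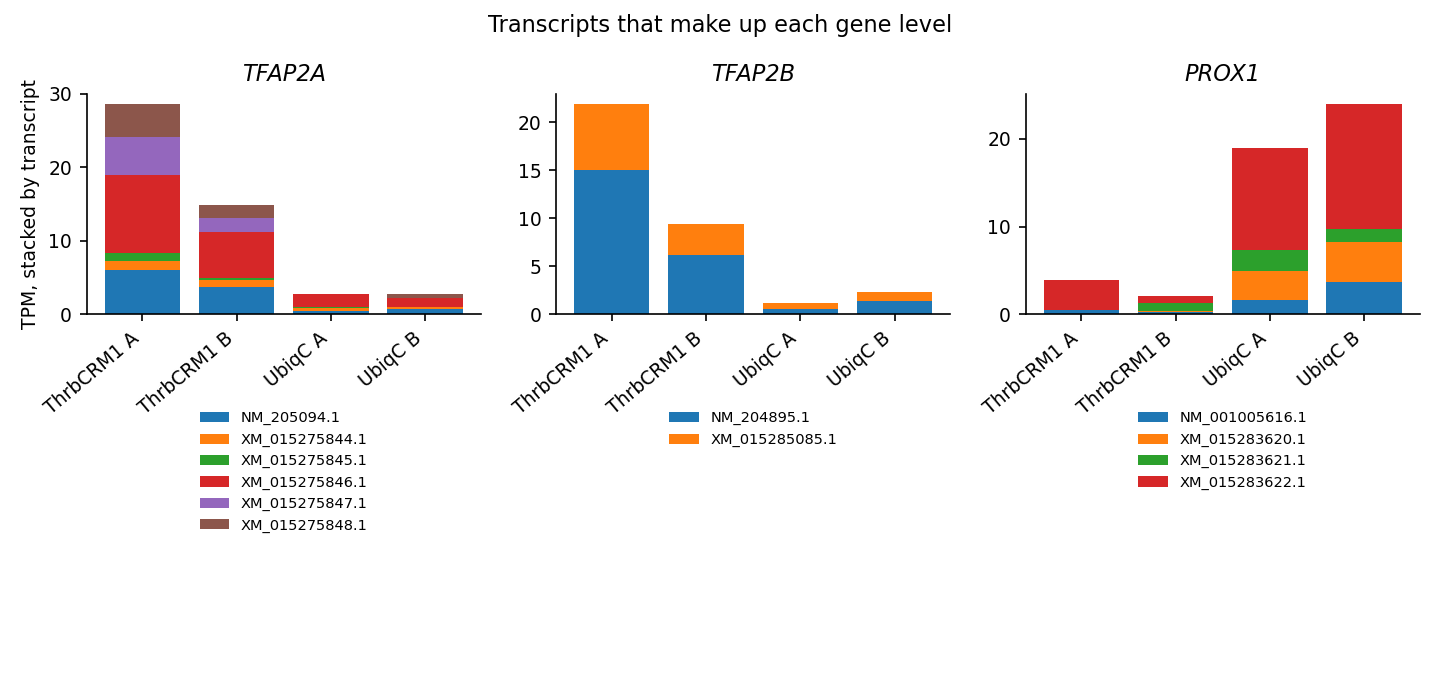
TPM of each transcript, stacked, in the 4 libraries for TFAP2A, TFAP2B and PROX1, each on its own axis that starts at 0. The TFAP2B bars are mostly the shorter transcript in ThrbCRM1, and the PROX1 bars of ThrbCRM1 A and B, at 3.94 and 2.11 TPM in all, differ in the long transcripts they are assigned to.

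Genes listed as partners and regulators of PTF1A moved in both directions. The list is not limited to genes that act with or before PTF1A. PRDM13, which PTF1A induces in amacrine cells of the mouse, is on it and rose. Of the 19 tested genes of this list, PTF1A among them, 12 rose, 5 fell and 2 did not pass. Their median log2 fold change was 0.46, against -0.01 over all tested genes, of which 19.9% rose and 20.9% fell. RBPJ, the DNA-binding partner in the PTF1A complex, rose by 0.46 ± 0.07 (SE, n = 2 per group; edgeR adjusted p = 0.00306). FOXN4, a forkhead factor that acts before PTF1A in the mouse retina, stood at 87.5 and 74.9 TPM in ThrbCRM1 and 96.5 and 111 TPM in UbiqC and fell by 0.41 on the log2 scale (edgeR adjusted p = 0.0120). Among E-protein genes TCF12 rose by 0.46 and TCF3 fell by 0.60, and TCF4 did not pass (log2 fold change -0.33). RBPJ, FOXN4 and the E-proteins were named after their values were seen.

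Other bHLH genes of this list also went both ways. NEUROD1, a bHLH factor of photoreceptors and amacrine cells, rose from 27.9 ± 1.71 to 719.6 ± 123 TPM (SD, n = 2; log2 fold change 4.62 ± 0.15, SE). ATOH7, a bHLH factor of progenitors close to cell cycle exit, rose by 1.73 ± 0.08. HES1, a Notch effector whose row was named through the RefSeq table, fell by 1.58 on the log2 scale. The edgeR adjusted p-values of these 3 genes were at most 5.85e-05.

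AP-2 cofactors were read beside the AP-2 genes. Of 12 tested genes of the family and its cofactors 7 rose, 4 of them AP-2 genes, 1 fell and 4 did not pass. Their median log2 fold change was 0.58, against -0.01 over all tested genes, of which 19.9% rose and 20.9% fell. Without TFAP2A, TFAP2B and TFAP2C, 4 of the 9 left rose, 1 fell and 4 did not pass, with a median of 0.44. CITED2 and CITED4, transcriptional coactivators of AP-2 proteins, moved in opposite directions. CITED4 rose from 8.91 ± 1.49 to 24.3 ± 5.45 TPM (SD, n = 2; log2 fold change 1.38 ± 0.19, SE; edgeR adjusted p = 0.00207), and CITED2 fell from 9.10 ± 0.240 to 2.82 ± 0.617 TPM (log2 fold change -1.72 ± 0.27; edgeR adjusted p = 0.00346). KCTD15, which inhibits AP-2 activity, rose by 0.64 ± 0.10 (edgeR adjusted p = 0.00318), and its relative KCTD1 just missed the threshold (0.44 ± 0.14; edgeR adjusted p = 0.0510).

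Genes known to work with PROX1 showed no common direction. Of 14 tested genes of its family and partners, PROX1 among them, 4 rose, 4 fell and 6 did not pass. Over all tested genes 19.9% rose and 20.9% fell. Without PROX1, 4 of the 13 left rose, PROX2 among them, 3 fell and 6 did not pass. The median log2 fold change was 0.01 with PROX1 and 0.04 without it, against -0.01 over all tested genes. SOX2, a progenitor factor, fell by 1.05 on the log2 scale, from 86.7 ± 5.75 to 43.6 ± 3.09 TPM (SD, n = 2; edgeR adjusted p = 0.000328), and CCND1, the gene of cyclin D1, fell by 0.57 (edgeR adjusted p = 0.00144). The cell cycle inhibitor gene CDKN1B, known as p27, rose by 0.64 (edgeR adjusted p = 0.00202), and CDKN1C, known as p57 and named through the RefSeq table, rose from 150.1 ± 19.5 to 437 ± 37.8 TPM (log2 fold change 1.48 ± 0.12, SE; edgeR adjusted p = 0.000223).

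Most horizontal cell genes were higher in ThrbCRM1, and PROX1 was among the few that were lower. Of 23 tested genes of the list 15 rose, 5 fell and 3 did not pass. Of the 18 other than the 5 genes 11 rose, 4 fell and 3 did not pass. Over all tested genes 19.9% rose and 20.9% fell. The median log2 fold change of the 18 was 1.49, against -0.01 over all tested genes. GJD2, the gene of the gap junction protein connexin 36, stood at 118 and 100.3 TPM in ThrbCRM1 cells against 8.35 and 8.43 TPM in UbiqC cells (log2 fold change 3.64 ± 0.12, SE; edgeR adjusted p = 1.48e-05). LHX1 stood at 67.7 and 50.5 TPM in ThrbCRM1 and at 4.11 and 5.68 TPM in UbiqC (3.58 ± 0.18; edgeR adjusted p = 4.35e-05). ONECUT2, a gene of early cones and horizontal cells, rose by 3.45 ± 0.25, and ONECUT1 by 3.04 ± 0.19. The ONECUT1 row of the authors' sheet also holds a transcript that the RefSeq table gives to ONECUT3. The list is not limited to genes that only horizontal cells express. In bulk RNA the rise of GJD2 therefore cannot be assigned to horizontal cells or to any other cell type.

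The listed genes that fell with PROX1 were ISL1, MEGF10, LNX1 and FOXN4, named after their values were seen. ISL1 stood at 4.35 and 1.79 TPM in ThrbCRM1 cells against 12.3 and 10.4 TPM in UbiqC cells (log2 fold change -1.84 ± 0.33, SE; edgeR adjusted p = 0.00644). LHX1 and ISL1, the markers of the axon-bearing and axonless horizontal cells, thus differed in opposite directions, as PTF1A and PROX1 did. ISL1 is also on the list of amacrine cell genes, so in bulk RNA its level does not stand for axonless horizontal cells alone. The part of horizontal cell types in these differences was not tested. MEGF10, a receptor gene of horizontal cell spacing in the mouse, fell by 1.54 and LNX1 fell by 1.24 on the log2 scale. MEGF11, on the same list, went the other way, at 6.15 and 5.50 TPM in ThrbCRM1 cells against 0.166 and 1.54 TPM in UbiqC cells. Its log2 fold change was 2.47 ± 0.77 (SE; edgeR adjusted p = 0.0460), with UbiqC libraries that lay far apart. CALB1, the gene of calbindin, stood at 0.834 TPM or less in every library, and the GABA synthesis gene GAD1 at 1.69 TPM or less, although both rose (edgeR adjusted p = 0.0187 and 0.00626). The neurofilament genes NEFL and NEFM, which neurons in general express, were far more abundant and also rose. NEFL reached 273 and 235 TPM in ThrbCRM1 cells against 102 and 79.8 TPM in UbiqC cells. CALB1, GAD1, NEFL, NEFM and MEGF11 too were named after their values were seen.

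**Figure D4:**
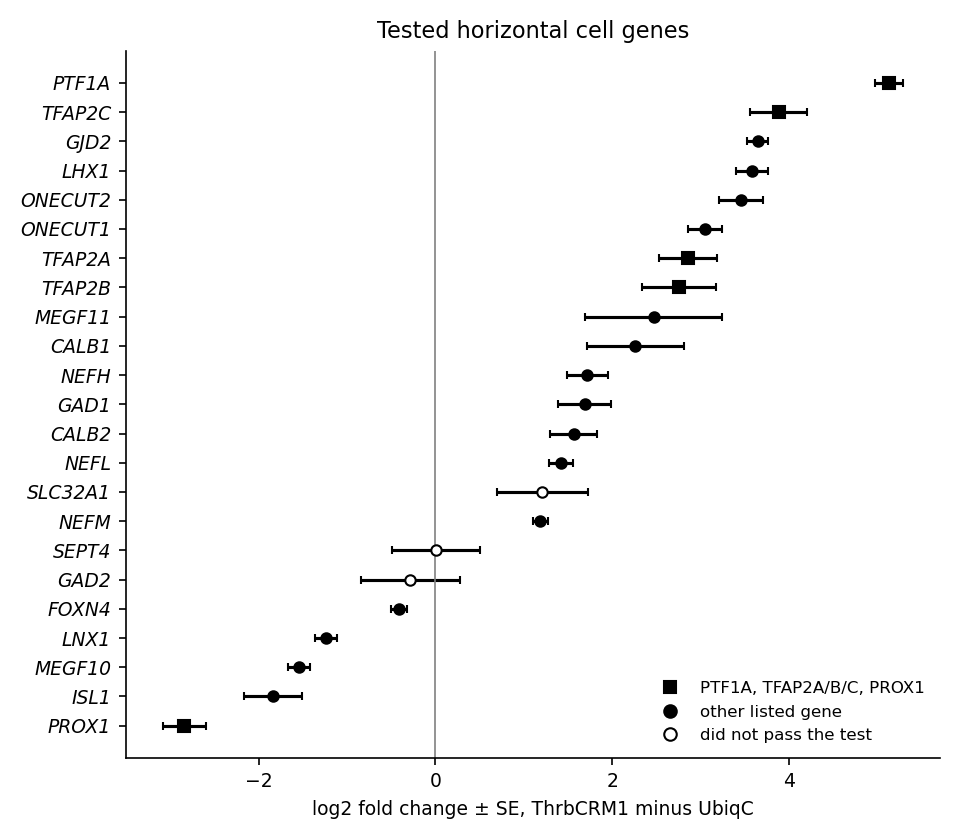
Log2 fold change of ThrbCRM1 minus UbiqC with its standard error for the 23 tested horizontal cell genes, with squares for PTF1A, TFAP2A, TFAP2B, TFAP2C and PROX1, circles for other genes and open symbols for the 3 that did not pass the test. PTF1A, at 5.13, and PROX1, at -2.84, stand at opposite ends of the list.

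PTF1A, TFAP2A, TFAP2B, TFAP2C and PROX1 are also on the list of amacrine cell genes. Of the 26 other tested genes of that list 14 rose, 5 fell and 7 did not pass. Their median log2 fold change was 0.40, against -0.01 over all tested genes, of which 19.9% rose and 20.9% fell. PRDM13, a factor induced by PTF1A in amacrine cells of the mouse, stood at 87.6 and 54.7 TPM in ThrbCRM1 cells against 3.09 and 4.22 TPM in UbiqC cells (4.18 ± 0.27, SE; edgeR adjusted p = 0.000104). PRDM13 was thus higher in ThrbCRM1 A than in B, as TFAP2A, TFAP2B and TFAP2C were. Of the 26 other amacrine cell genes, 15 were higher in ThrbCRM1 A, against 50.9% of all tested genes. The median log2 ratio of A to B of the 26 was 0.13. MEIS2, a homeobox gene of amacrine cells, rose by 1.22 ± 0.07 and NEUROD4, a bHLH factor, by 1.14 ± 0.08. LHX9, a LIM homeobox gene, fell by 1.21 on the log2 scale, from 70.1 ± 0.157 to 31.7 ± 3.06 TPM (SD, n = 2). PAX6, which both amacrine and progenitor cells express, did not pass (edgeR adjusted p = 0.0657).

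The genes nearest to each of the 5 were found by the root mean square difference of log2(TPM + 1) over the 4 libraries among 12559 genes with a symbol, a measure that takes level and direction together. BARHL2, a homeobox gene of amacrine and ganglion cells, was nearest to TFAP2C with a difference of 0.09, at 26.4 and 17.3 TPM in ThrbCRM1 cells against 1.02 and 1.41 TPM in UbiqC cells. RSPO1, a secreted Wnt agonist, came next at 0.24. FGF3, a fibroblast growth factor gene, was nearest to PTF1A at 0.29, with 122 and 112 TPM in ThrbCRM1 and 4.29 and 3.68 TPM in UbiqC, and GNGT2, the gene of a cone transducin subunit, came next at 0.45. NRXN3, a neurexin gene, and SCN8A, a sodium channel gene, were nearest to TFAP2A, both at 0.28. KIAA1211L at 0.33 and TACR1, a tachykinin receptor gene, at 0.42 were nearest to TFAP2B. PLCD1, a phospholipase C gene, at 0.23 and FGL1 at 0.24 were nearest to PROX1. All of these differences rest on 4 libraries in 2 groups.

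Cell types outside the neural retina also use these genes, and their markers were read beside them; single markers were named after their values were seen. Of 11 lens markers in the table, summed levels were 69.9 and 52.4 TPM in ThrbCRM1 cells against 91.0 and 96.7 TPM in UbiqC cells. Of the 9 tested, 2 rose and 4 fell, where 19.9% of all tested genes rose and 20.9% fell. CRYAB, a crystallin that other tissues also express, held 51.8 and 60.9 TPM of the UbiqC sums, and MIP, a defining lens fibre gene, stood at 0.770 TPM or less in every library. CRYBA4, another crystallin gene, went the other way and held most of the ThrbCRM1 sums. It stood at 49.6 and 34.0 TPM in ThrbCRM1 cells against 13.8 and 10.9 TPM in UbiqC cells (log2 fold change 1.70; edgeR adjusted p = 0.00106). BFSP1 rose too (2.10), while ASL2, BFSP2 and ASL1 fell with CRYAB. ASL2 stood at 0.935 and 0.791 TPM in ThrbCRM1 cells against 9.28 and 9.25 TPM in UbiqC cells. BFSP2 stood at 0.648 and 1.06 TPM in ThrbCRM1 cells against 3.59 and 3.92 TPM in UbiqC cells. The log2 fold changes of ASL2, BFSP2 and ASL1 were -3.43, -2.22 and -1.21 (edgeR adjusted p = 0.000163, 0.00352 and 0.0154). Of 12 endothelial markers, 0 rose, 4 fell and 5 did not pass among 9 tested, with sums of 22.5 and 22.4 TPM in ThrbCRM1 cells against 73.4 and 96.8 TPM in UbiqC cells. KDR alone, a receptor gene that retinal progenitors also express, held 53.8 and 74.2 TPM of the UbiqC sums. FLT1, TEK and CLDN5 fell as well. FLT1 stood at 0.284 and 0.144 TPM in ThrbCRM1 cells against 3.03 and 5.05 TPM in UbiqC cells. Its log2 fold change was -4.20 (edgeR adjusted p = 0.000448), and those of TEK and CLDN5 were -1.35 and -2.21. The lymphatic markers FLT4 and LYVE1 stood at 0.465 TPM or less in every library. The part of these cell types in the fall of PROX1 was not tested.

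AP-2 genes are also known from surface ectoderm and neural crest. The 14 surface ectoderm markers summed to 45.1 and 41.7 TPM in ThrbCRM1 cells against 41.5 and 40.8 TPM in UbiqC cells, with 3 of 11 tested genes higher and 4 lower. The 13 neural crest and periocular mesenchyme markers summed to 17.3 and 18.8 TPM in ThrbCRM1 and 13.1 and 15.1 TPM in UbiqC, with 1 of 10 tested genes higher and 3 lower. Over all tested genes 19.9% rose and 20.9% fell. TP63, KRT14 and TWIST1, defining genes of these tissues, stood at 1.76 TPM or less in every library, and TP63 was among the genes that rose (edgeR adjusted p = 0.0113). The other genes of these lists that rose were more abundant. PDGFRA, a growth factor receptor gene, reached 9.23 and 10.4 TPM in ThrbCRM1 cells against 2.82 and 2.89 TPM in UbiqC cells (log2 fold change 1.71; edgeR adjusted p = 0.000145). GRHL1, a grainyhead factor gene, rose by 0.86 and EPCAM, an epithelial adhesion gene, by 0.49 on the log2 scale (edgeR adjusted p = 0.00284 and 0.0348). The part of these tissues in the rise of the AP-2 genes was not tested. The 12 pigment epithelium markers summed to between 19.8 and 24.5 TPM in the 4 libraries.

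The directions and calls of the 5 genes held in the edgeR, DESeq2 and limma fits that were run and with any 1 library left out. Over 14 alternatives the log2 fold change of PTF1A lay between 4.87 and 5.26, that of TFAP2A between 2.33 and 3.22, that of TFAP2B between 2.10 and 3.26, that of TFAP2C between 3.22 and 4.25 and that of PROX1 between -3.36 and -2.51. The highest adjusted p among these was 0.0233, for TFAP2B. The count of genes called over the table, 6839, was 3846 without ThrbCRM1 A and 4546 without ThrbCRM1 B. The authors' deposited table, made from the same libraries, lists all 5 with q below 0.05, as it does 39.9% of its genes. Its effects, on a natural log scale that is negative where ThrbCRM1 is higher, were -3.52 for PTF1A, -1.96 for TFAP2A, -2.16 for TFAP2B, -2.69 for TFAP2C and 2.05 for PROX1 in the authors' deposited table.

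**Figure D5:**
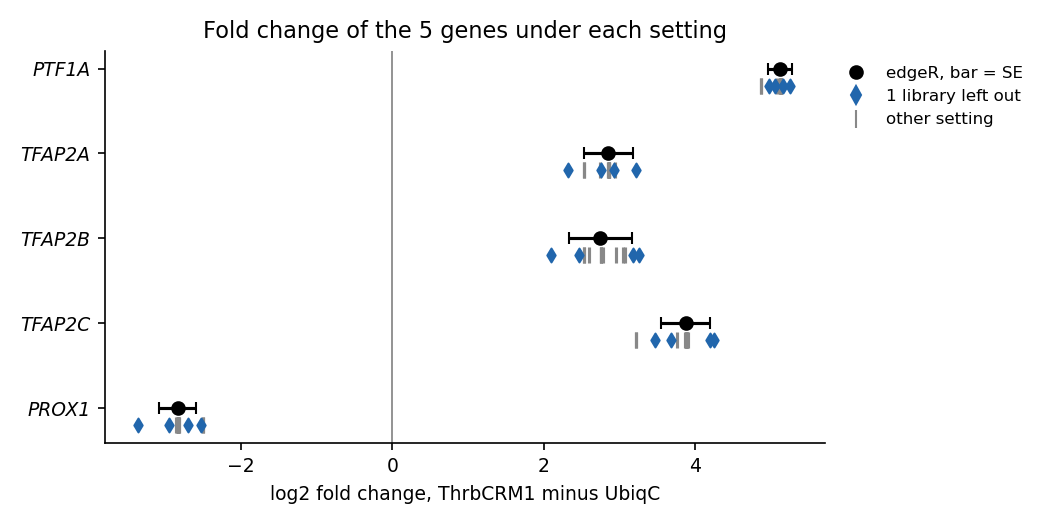
Log2 fold change of each gene in the edgeR fit with its standard error (black), with 1 library left out (blue diamonds) and under the other settings (grey ticks). No setting brought a gene to 0, and TFAP2B had the lowest value on the higher side, 2.10 without ThrbCRM1 A.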

How the data were processed

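The submitters' processing notes name kallisto, sleuth and the chicken build galGal5; tool versions are not given in the sources used here. Each library's deposited table holds the authors' expected counts and TPM for every transcript, together with transcript lengths in bases. The authors' deposited comparison lists a p-value and a q-value per gene, and an effect size in natural log units.

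Transcripts were summed by gene through the authors' sheet (35667 of 57401 transcripts, all with equal length in both tables). Of 21 symbols turned into numbers, 19 were named through RefSeq. 3 columns of the sheet with no library name were not used. Expected counts were rounded to whole numbers and tested with edgeR 4.0.16 (R 4.3.3; TMM, filterByExpr with a minimum count of 10, quasi-likelihood test, Benjamini-Hochberg adjustment over all genes, group as the only term, 2 residual degrees of freedom). Standard errors are the fold change divided by the root of the F statistic. EGFP and TdTomato were left out. The edgeR step was tested on simulated data. Alternatives used DESeq2 1.42.0 and limma 3.58.1, with pseudocounts of 1 and 0.1 and a filter at 1 TPM. A chi-square comparison of A with B, divided by its degrees of freedom, gave 8.22 for ThrbCRM1 and 9.83 for UbiqC, so neither pair is 1 library deposited again.

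The genes and lists were chosen with earlier results of these data known. Named genes are the 5, their paralogs, the 4 genes per list that ranked first by edgeR p and the 2 nearest to each of the 5 by TPM. Others are said to be named after their values were seen. KCTD1, PAX6, THRB, FABP7, SIX6, GNAT2 and ARR3 were also named outside this rule. Genes of the lists without a match in the tables, such as RBPJL, are not analysed here, and 1 gene that the rule names is not reported here. No coordinates or sequences are given.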

Additional observations from a re-analysis of the deposited data

How the results depend on the processing

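Of the results that answer a comparison, 169 of 177 values under another setting kept their direction and their side of the threshold, or a count within 1.5 times. The exceptions were counts. The number of genes called, 6839, lay between 3846 and 6189 with 1 library left out, and fewer libraries leave fewer residual degrees of freedom. The number of transcripts of the 5 genes called, 2, was 10 with the DESeq2 test, was 0 with the letter as a replicate block (unadjusted edgeR p below 0.05 for 7 of the 14) and lay between 0 and 0 with 1 library left out (unadjusted edgeR p below 0.05 for between 6 and 11 of the 13 or 14 tested). The cause of these differences was not tested. A fit with the letter as a replicate block kept all 5 genes called and called 8376 genes; the letters share only a name, and the correlation of same-letter deviations was 0.27. TFAP2E, which did not pass, turned to -0.14 when transcripts outside the authors' sheet were added, an alternative chosen after seeing the data. The estimated counts of transcripts that share sequence limit the transcript results, and the low counts of PROX2 and TFAP2E limit theirs.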

Other observations

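Of the amacrine cell list, 3 transmitter genes are given here that were named after their values were seen. SLC18A3, the vesicular acetylcholine transporter gene, stood at 9.18 and 13.6 TPM in ThrbCRM1 cells against 1.17 and 1.48 TPM in UbiqC cells (log2 fold change 3.0 ± 0.30, SE; edgeR adjusted p = 0.000619). CHAT, which makes acetylcholine, rose by 3.60 ± 0.49 at levels of 0.669 TPM or less (edgeR adjusted p = 0.00210). SLC18A3 was higher in ThrbCRM1 B than in A, unlike TFAP2A, TFAP2B and TFAP2C. The GABA vesicle transporter gene SLC32A1 stood at 4.77 and 1.43 TPM in ThrbCRM1 cells against 1.36 and 1.22 TPM in UbiqC cells, and did not pass (edgeR adjusted p = 0.110).

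A further transcript of TFAP2B, of 9099 bases, has no gene name in the authors' sheet and carries that name in the RefSeq table. It held 286 estimated counts, or 1.98 TPM, in ThrbCRM1 A and was listed at 0 in the other libraries. With it the log2 fold change of TFAP2B was 2.96 ± 0.50 (SE; edgeR adjusted p = 0.00482).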
